A study of Homo sapiens with 9 samples.

Results

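The genes described are 10 components of Hedgehog signalling, taken by symbol from the 35762 genes of the table: the receptors PTCH1, SMO and HHIP, the co-receptors GAS1, CDON and BOC, the transcription factors GLI2 and GLI3, and the ciliary genes EVC and EVC2. All 10 were listed, and 8 had enough counts to be tested (GLI2 and GLI3 had not). TYUC-1, a human neuroendocrine carcinoma line of the esophagus kept in suspension culture, was sequenced as poly-A RNA on day 0, day 3 and day 6 of EPZ-6438, an inhibitor of the histone methyltransferase EZH2. Each day had 3 libraries, described as biological replicates, of 1 line. The treatment protocol gives 2 uM inhibitor or DMSO, every library is labelled with the inhibitor, and whether day 0 cells had DMSO is not stated. No vehicle library of day 3 or day 6 was used here, so inhibitor and days in culture cannot be told apart.

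Hedgehog ligands bind PTCH1, which otherwise holds the membrane protein SMO inactive. Active SMO accumulates in the primary cilium, where the EVC and EVC2 proteins form a complex near its base that passes the signal on, and GLI factors then carry it to the nucleus. PTCH1, HHIP and GLI1 are themselves classical target genes, and PTCH1 and HHIP proteins restrain the pathway. EZH2 is the catalytic subunit of PRC2, which marks histone H3 at repressed developmental genes, often at CpG-rich promoters.

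EVC and EVC2 were almost uncounted on day 0 and rose at both steps, EVC to 15.1 ± 0.0798 CPM (counts per 1000000 counts of the library, mean ± SD, n = 3) on day 6. HHIP rose from day 0 to day 3 and then fell below its day 0 level. CDON rose by less than 2-fold, GAS1 and SMO rose from very low levels, and PTCH1 and BOC did not pass the test. GLI2 and GLI3 stayed near 0 on all 3 days. A gene is said to have risen or fallen where its adjusted p from edgeR's quasi-likelihood test, corrected over the 15345 genes tested, was under 0.05.

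Libraries held 21638874 to 31235055 estimated counts, so 3 counts, the upper limit that a count of 0 allows, stood for 0.098 to 0.141 CPM. The day 0 library of replicate 2 stood apart from the other 2 of its day. Across genes on log2 values, r was 0.9855 and 0.9853 with those, against 0.9961 between them. Results of SMO, PTCH1, GAS1, CDON and BOC that rest on this library are also given without it. Single genes named beyond the Hedgehog components listed at the start are given only with it. The chromatin target itself was transcribed throughout, with EZH2 at 193 ± 3.95, 167 ± 2.34 and 150.3 ± 8.46 CPM on days 0, 3 and 6. EED and SUZ12, the other core PRC2 genes, went from 42.2 to 28.0 and from 173 to 116 CPM between day 0 and day 6. Transcripts do not measure inhibition of the enzyme. Of 11 genes listed as neuroendocrine markers, CHGA was at 0 in all 9 libraries and SYP was at 5.85 ± 0.948 CPM on day 0. All 11 summed to 424 to 434 CPM on day 0 and 322 to 336 on day 6. Among the 8 tested, 1 was higher, 2 were lower and 5 were not called on day 6 against day 0. Such a sum is set mainly by the most abundant genes of the list. Its fall is therefore not read as a loss of neuroendocrine identity, and whether each gene marks only neuroendocrine cells was not tested. In these bulk samples, fewer cells carrying a transcript and less of it per cell cannot be told apart.

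Transcripts of the ligands SHH and IHH were close to absent. SHH had no count on day 0, 3 counts over the day 3 libraries and 9 over those of day 6, and IHH had 1, 1 and 6. SHH and IHH were both below the level needed for a test. DHH had no entry among the genes used here, so its level is not known.

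SMO (chr7:129188872-129213545, plus strand; gene positions here and below are GENCODE release 29 on GRCh38) encodes the signal transducer that PTCH1 restrains. Its CPM were 0.163, 0.128 and 0.094 in the day 0 libraries, 0.485, 0.268 and 0.391 on day 3, and 0.404, 0.431 and 0.775 on day 6. Every later library lay above every day 0 library, and those of day 3 and day 6 overlapped. It rose on day 3 (adjusted p = 0.029, log2 fold change 1.49, SE 0.49) and on day 6 (1.97, SE 0.47, adjusted p = 0.00359), and not between them (0.48, SE 0.39, adjusted p = 0.466). These values rest on 10, 30 and 40 pooled counts. Their ratio for day 6 over day 0 was 3.96, with an exact 95% interval of 1.95 to 8.88 that covers counting error only. Without day 0 replicate 2 the day 6 log2 fold change was 1.94 (adjusted p = 0.00892). The day 3 call was lost in 6 of the 16 alternatives that gave it a value, with adjusted p up to 0.11: without day 0 replicate 2 (0.0572) or 3 (0.0828), without day 3 replicate 1 (0.11) or 3 (0.072), with no filter on low counts (0.054) and with DESeq2 (0.0758).

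PTCH1 (chr9:95442980-95517057, minus strand), the ligand receptor, was at 28.7, 19.2 and 29.1 CPM on day 0, 30.9, 31.4 and 28.9 on day 3, and 30.9, 32.0 and 31.3 on day 6. The day 0 library of replicate 2 was the low one. The other 2 day 0 libraries lay within or just below the range of the treated days. PTCH1 passed in no comparison (log2 fold change 0.29 on day 6 against day 0, SE 0.13, adjusted p = 0.0795), although the day 6 and day 0 libraries did not overlap. Without the low library the difference from day 0 was 0.07 on day 3 (adjusted p = 0.417) and 0.11 on day 6 (adjusted p = 0.164). Without replicate 1 or without replicate 3 of day 0, the day 6 difference was 0.38 and passed (adjusted p = 0.0429 and 0.0383). It also passed with library size as the only scaling (0.40, adjusted p = 0.0477).

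PTCH1 is a textbook GLI target, and its upstream sequence is shown for the GLI site it holds. The 9-base consensus GACCACCCA, searched on both strands, was found in 83 of 34941 windows of 300 bases around RefSeq start sites (0.238%). Of 17 such windows for 9 of the 10 genes, 1 held it, at a PTCH1 start, with its first base 172 bases before that start. The stretch below, 5′ to 3′ on the gene's strand, is chr9:95509267-95509516 of GRCh38.p14, minus strand, inside the gene but in none of its GENCODE exons, and capitals mark the match, which reads as the reverse complement TGGGTGGTC. A match describes the letters and was not measured as a bound site.
PTCH1: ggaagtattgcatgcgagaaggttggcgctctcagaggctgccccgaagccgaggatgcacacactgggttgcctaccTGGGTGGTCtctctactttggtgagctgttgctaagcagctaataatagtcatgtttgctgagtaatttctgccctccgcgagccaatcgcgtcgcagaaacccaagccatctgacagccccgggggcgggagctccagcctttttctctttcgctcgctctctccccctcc

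HHIP (chr4:144646021-144745271, plus strand) encodes a membrane protein that binds Hedgehog ligands and limits their reach. It stood at 39.0, 40.2 and 36.6 CPM on day 0, at 62.4, 60.5 and 63.5 on day 3, and at 28.5, 27.5 and 25.1 on day 6. No 2 days overlapped. The rise to day 3 (log2 fold change 0.68, SE 0.07, adjusted p = 3.52e-05) was followed by a fall of 1.20 on the log2 scale to day 6 (SE 0.08, adjusted p = 1.05e-06). Day 6 was below day 0 (log2 fold change -0.52, SE 0.08, adjusted p = 0.000127). HHIP passed in the same direction in all 3 comparisons under all 18 alternatives. A rise to day 3 followed by a fall to day 6 was called for 0.867% of all tested genes. The full course of HHIP (called higher on day 3, lower from day 3 to day 6 and lower on day 6 than on day 0) was shared by 21 of the 15345 tested genes (0.137%), HHIP included.

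GAS1 (chr9:86944363-86947189, minus strand) is a GPI-anchored co-receptor that helps present ligand to PTCH1. Its counts were 6, 9 and 1 in the day 0 libraries, 25, 22 and 26 on day 3, and 34, 32 and 19 on day 6. In CPM the mean went from 0.209 ± 0.168 to 0.933 ± 0.197 and 1.11 ± 0.282. No day 0 library reached a library of the later days, while day 3 and day 6 overlapped. GAS1 rose on day 3 (adjusted p = 0.00418, log2 fold change 2.10, SE 0.47) and on day 6 (2.37, SE 0.46, adjusted p = 0.000991), with pooled ratios of 4.32 (95% interval 2.49 to 7.95) and 5.26 (3.06 to 9.62). Day 6 against day 3 did not pass (0.27, SE 0.37, adjusted p = 0.703). Day 0 replicate 2 holds 9 of the 16 pooled day 0 counts, and without it the log2 fold changes were 2.75 on day 3 (adjusted p = 0.000767) and 3.01 on day 6 (adjusted p = 0.00017).

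CDON (chr11:125955796-126063335, minus strand), an immunoglobulin-family co-receptor, had 36.0, 30.2 and 35.7 CPM on day 0, 45.3, 47.8 and 43.4 on day 3, and 52.3, 56.7 and 54.4 on day 6. Its libraries did not overlap between any 2 days. It rose on day 3 (adjusted p = 0.00219, log2 fold change 0.42, SE 0.08) and was further above day 0 on day 6 (0.68, SE 0.08, adjusted p = 3.5e-05). Without day 0 replicate 2, the lowest library of its day, these log2 fold changes were 0.34 (adjusted p = 0.000767) and 0.59 (adjusted p = 2.96e-06). The step from day 3 to day 6 fell short of the threshold (0.26, SE 0.08, adjusted p = 0.0544). That step passed in 5 of 18 alternatives, in a range of adjusted p from 0.00378 (without day 0 replicate 2) to 0.203. VSIG10L2, on the opposite strand, covers 26.7% of the exon bases of CDON and was at 0.0399 ± 0.0434 CPM on day 6.

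BOC (chr3:113211003-113287459, plus strand), the closest relative of CDON, was the most abundant of the 10 genes. It was at 151, 109 and 143 CPM on day 0, 163, 166 and 155 on day 3, and 153, 146 and 158 on day 6. Replicate 2 of day 0 was again the lowest. BOC passed in no comparison: the log2 fold change was 0.26 on day 3 (SE 0.11, adjusted p = 0.0675) and 0.18 on day 6 (SE 0.11, adjusted p = 0.177) against day 0. The day 3 difference passed without day 0 replicate 1 (0.36, adjusted p = 0.0252) and was 0.13 without replicate 2 (adjusted p = 0.0952). Without replicate 2 the day 6 difference was 0.04 (adjusted p = 0.588). BOC shares 513 exon bases with CFAP44 on the opposite strand, which is 4.97% of its exon bases. The sources used here do not give the strand setting of the counts. CFAP44 was at 24.1 ± 1.86, 17.9 ± 0.606 and 17.7 ± 1.43 CPM.

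GLI2 (chr2:120735623-120992653, plus strand) and GLI3 (chr7:41960950-42237870, minus strand), the main activator and the main repressor among the GLI factors, were nearly uncounted. GLI2 had 1, 0 and 1 counts on day 0, 2, 0 and 0 on day 3, and 8, 6 and 0 on day 6. GLI3 had 4 counts in all, 1 on day 0 and 3 in a day 3 library, and none on day 6. Neither gene reached the filter in any library. The pooled day 6 count of GLI2 was 6.93 times that of day 0 per sequenced count (95% interval 1.59 to 62.8), with 1 of the 3 day 6 libraries at 0. Tested with no filter on low counts, GLI2 on day 6 against day 0 had an adjusted p of 0.0989. GLI1, the factor that the pathway induces, had 7, 29 and 29 pooled counts on days 0, 3 and 6, a ratio of 3.92 (1.68 to 10.6) for day 3 over day 0, and was not tested. At this depth a change in GLI3 was not detectable.

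EVC and EVC2 encode partner membrane proteins of the cilium, and mutation of either causes Ellis-van Creveld syndrome. EVC had 1, 2 and 1 counts in the day 0 libraries, 79, 79 and 41 on day 3, and 446, 350 and 352 on day 6. In CPM the day 0 values were 0.0327, 0.0851 and 0.047, those of day 3 were 2.95, 2.64 and 1.78, and those of day 6 were 15.0, 15.1 and 15.2. No 2 days overlapped, and the day 6 libraries had an SD of 0.0798 CPM. That is less than counting error alone gives at such counts, so it understates the spread. EVC rose from day 0 to day 3 (log2 fold change 5.42, SE 0.35, adjusted p = 8.53e-07) and again from day 3 to day 6 (2.60, SE 0.16, adjusted p = 8.93e-07). By pooled counts, day 3 was 47.1 times day 0 (95% interval 18.1 to 174), day 6 was 284 times day 0 (111 to 1045), and day 6 was 6.04 times day 3 (5.19 to 7.05). Fitted fold changes against day 0 depend on the small count added to near-zero values, which the pooled ratios do not use.

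EVC2 followed at a lower level. It had 2, 0 and 0 counts on day 0, 19, 24 and 13 on day 3, and 81, 55 and 61 on day 6, or 0.692 ± 0.12 CPM on day 3 and 2.57 ± 0.183 on day 6. The 3 days did not overlap. Its log2 fold changes were 4.49 by day 3 (SE 0.58, adjusted p = 0.000126) and 6.37 by day 6 (SE 0.49, adjusted p = 7.41e-07) against day 0, and 1.88 from day 3 to day 6 (SE 0.29, adjusted p = 0.000803). Pooled ratios were 26.5 (7.0 to 224), 97.5 (26.6 to 811) and 3.68 (2.72 to 5.05). Both day 0 counts of EVC2 came from replicate 1. Without that library day 0 was at 0 and the fitted log2 fold changes were 7.14 by day 3 and 9.02 by day 6, which are no bound. EVC and EVC2 were the only 2 of the 8 tested genes called higher at both steps, a course that 7.4% of all tested genes had. Both reached the filter in no day 0 library and entered the test through later days, so this share is not read as evidence. EVC and EVC2 passed in all 3 comparisons under all 18 alternatives.

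**Figure D1:**
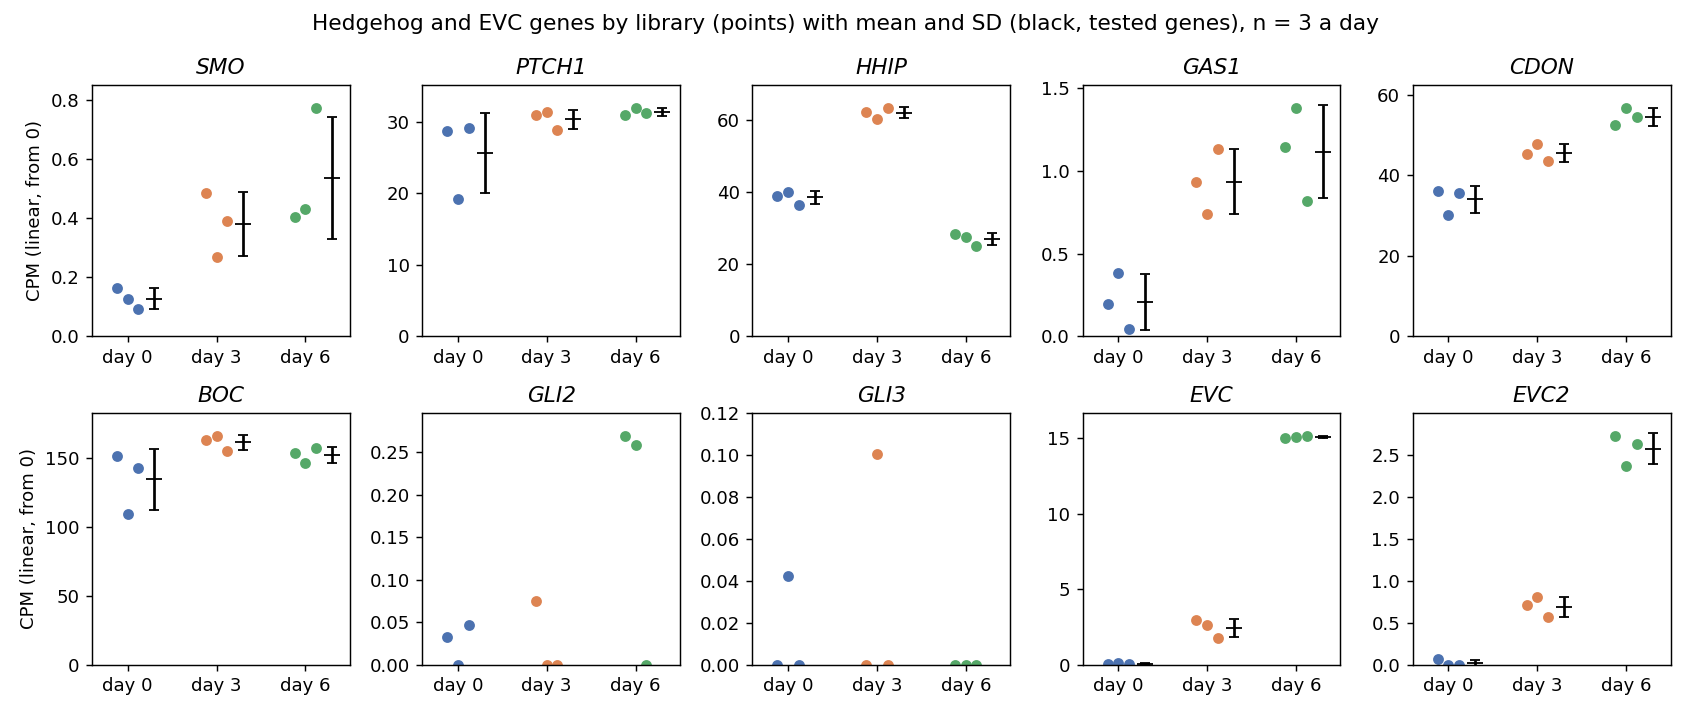
CPM of each gene (linear axes from 0, a scale per gene) in the 3 libraries of day 0, day 3 and day 6, with mean and SD in black for the 8 tested genes. EVC reaches 15.0 to 15.2 CPM on day 6, HHIP is highest on day 3, and the low day 0 points of PTCH1 (19.2) and BOC (109) are the same library.

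EVC (chr4:5711197-5814305, plus strand) and EVC2 (chr4:5542772-5709548, minus strand) lie head to head, with 2641 bases between their RefSeq start sites and 1648 between their GENCODE gene starts. Among the protein-coding genes around them in the table, STK32B, CYTL1, CRMP1, C4orf50 and JAKMIP1 had mean levels of at most 0.190 CPM on every day. Within that low range, the day 6 libraries of STK32B, CRMP1 and JAKMIP1 all lay above their day 0 libraries, and none of the 3 was tested. CRMP1, which overlaps EVC on the opposite strand in 159 exon bases, was at 0 on day 0 and at 0.173 ± 0.115 CPM on day 6, against 15.1 for EVC. The next genes outward were expressed on day 0: MSX1 was at 9.44 ± 0.0619 and 13.1 ± 1.92 CPM on days 0 and 6, and WFS1 at 10.8 ± 0.304 and 20.5 ± 2.62. Both rose (adjusted p = 0.00447 and 2.65e-05).

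**Figure D2:**
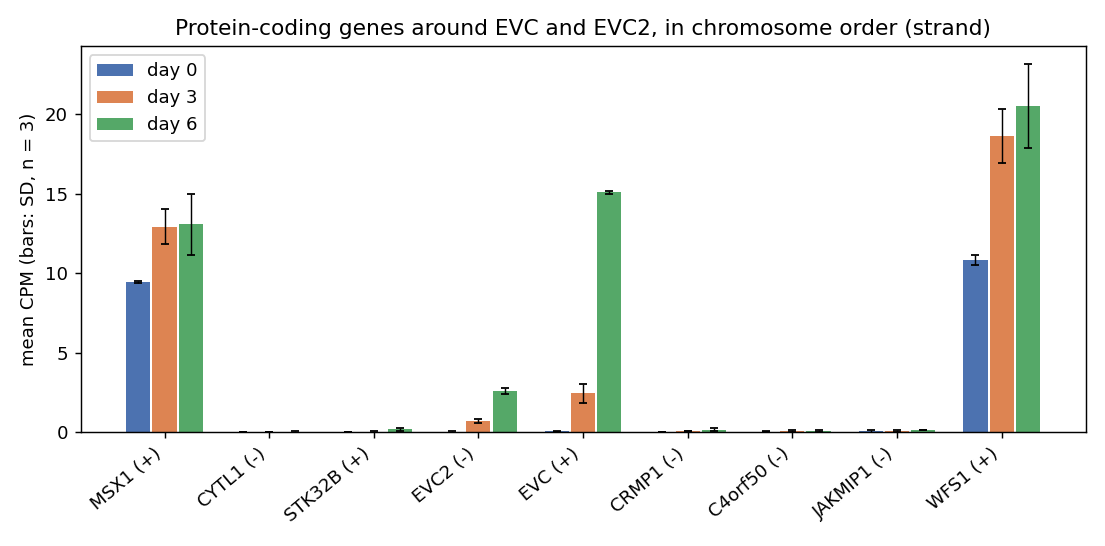
Mean CPM (linear axis from 0, bars are SD, n = 3) on days 0, 3 and 6 for protein-coding genes around EVC and EVC2 in chromosome order, strand in brackets. EVC and EVC2 rise from near 0 while the 3 genes to their right and the 2 to their left stay at or below 0.190 CPM.

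The upstream sequences of EVC, EVC2 and GAS1, which rose from near 0, are shown beside that of HHIP, which was well expressed on day 0, with CG dinucleotides in capitals. Each is from RefSeq's GRCh38.p14 windows, 5′ to 3′ on the gene's strand, cut where a GENCODE exon of the gene begins. They are chr4:5710951-5711196 (plus strand, 246 bases) for EVC, chr4:5708568-5708809 (minus, 242 bases) for EVC2, chr9:86947507-86947756 (minus, 250 bases) for GAS1 and chr4:144645906-144646020 (plus, 115 bases) for HHIP. The EVC2 stretch lies inside the GENCODE gene but in none of its exons.
EVC: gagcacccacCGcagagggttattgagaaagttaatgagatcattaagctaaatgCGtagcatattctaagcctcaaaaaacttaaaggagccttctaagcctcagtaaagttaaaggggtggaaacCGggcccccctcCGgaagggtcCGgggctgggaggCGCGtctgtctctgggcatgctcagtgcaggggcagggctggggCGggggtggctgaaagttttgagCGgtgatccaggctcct
EVC2: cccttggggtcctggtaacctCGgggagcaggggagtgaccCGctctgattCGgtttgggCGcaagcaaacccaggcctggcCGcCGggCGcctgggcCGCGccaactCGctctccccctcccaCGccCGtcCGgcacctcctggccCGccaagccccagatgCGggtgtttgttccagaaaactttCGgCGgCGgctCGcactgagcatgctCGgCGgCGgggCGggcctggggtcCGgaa
GAS1: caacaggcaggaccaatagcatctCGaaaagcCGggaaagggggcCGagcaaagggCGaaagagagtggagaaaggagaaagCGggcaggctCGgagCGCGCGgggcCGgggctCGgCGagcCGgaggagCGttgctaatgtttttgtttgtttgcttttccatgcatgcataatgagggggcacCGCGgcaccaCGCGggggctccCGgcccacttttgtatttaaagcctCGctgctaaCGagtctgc
HHIP: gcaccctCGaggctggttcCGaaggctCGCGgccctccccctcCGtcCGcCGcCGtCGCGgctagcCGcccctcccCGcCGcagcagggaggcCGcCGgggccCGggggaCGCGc

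These stretches held 9 CG dinucleotides for EVC, 24 for EVC2, 21 for GAS1 and 18 for HHIP. Over the full windows of 300 bases, the ratio of observed to expected CG was 0.549 for EVC, 0.839 for EVC2, 0.931 for GAS1, 0.77 for SMO and 0.909 for HHIP, against a median of 0.577 over all 34941 windows. EVC, which had the largest fold of the 10 genes, was the one of these 5 below that median. Histone marks at these promoters were not measured here.

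Of the 8 tested genes, 6 were called higher and 0 lower on day 3 against day 0, where 22.5% of all tested genes were called higher and 18.1% lower. On day 6 against day 0, 5 were higher and 1 lower (background 28.9% and 25.7%), and on day 6 against day 3, 2 were higher and 1 lower (11.5% and 4.76%). Their median log2 fold change was 1.09, 1.32 and 0.26 in the 3 comparisons, against 0.0146, 0.0132 and -0.00125 over all tested genes. Libraries of the later and the earlier day did not overlap for 7 of the 8 on day 3 against day 0, all higher (background 53.8% in either direction, 28.8% higher), for 7 on day 6 against day 0, 6 of them higher (58.7%, 31.2% higher), and for 4 on day 6 against day 3, 3 of them higher (43.5%, 22.8% higher). These counts are not read as evidence: SMO, GAS1, EVC and EVC2 reached the filter of 0.385 CPM in no day 0 library and entered the test only through later days, so they had to differ. The 4 that reached it in every library (HHIP, PTCH1, CDON and BOC) comprise 1 that rose and then fell, 1 that rose and 2 that did not pass.

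**Figure D3:**
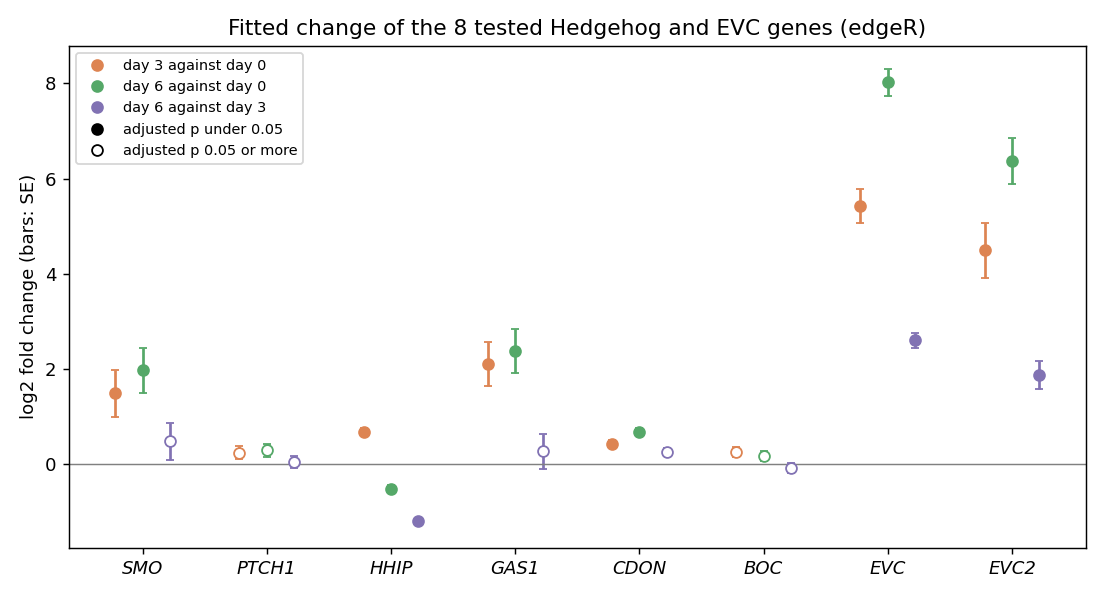
Fitted log2 fold changes (bars are SE) of the 8 tested genes in the 3 comparisons, filled where the adjusted p is under 0.05. EVC and EVC2 stand highest (8.02 and 6.37 on day 6 against day 0), and HHIP is above 0 on day 3 (0.68) and below 0 in both day 6 comparisons (-0.52 and -1.20).

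Divided by the length of the longest coding transcript, BOC was the highest on day 0 at 28.9 ± 4.82 CPM per kilobase. CDON (3.72 ± 0.354), HHIP (3.84 ± 0.182) and PTCH1 (3.12 ± 0.679) came next and did not differ beyond their spread. GAS1 (0.0738 ± 0.0595) and SMO (0.0343 ± 0.00927) were far lower, and EVC (0.00854), EVC2 (0.00451), GLI2 (0.00391) and GLI3 (0.00173) rested on 4 pooled counts or fewer each. On day 6 EVC had come to 2.35 ± 0.0124 CPM per kilobase, below CDON (5.96 ± 0.240), PTCH1 (3.81 ± 0.0645) and HHIP (2.68 ± 0.171) by more than the summed SDs, and above EVC2 at 0.533 ± 0.0379. The SD of EVC is smaller than its counting error and understates its spread. GAS1 (0.394 ± 0.0996) was below EVC2 by about the sum of their SDs, SMO was at 0.144 ± 0.0554, and BOC stayed highest at 32.8 ± 1.25. The transcripts in use were not measured, and with the median coding transcript length PTCH1 stood above HHIP on day 0.

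The genes whose course over the 9 libraries was nearest to those of the 3 largest changes were picked by the root mean square distance between centred log2(CPM + 0.5) values, among the 13338 tested genes that averaged 1 CPM or more. For EVC they were the collagen gene COL6A2 (distance 0.178, from 0.0579 ± 0.0738 CPM on day 0 to 18.1 ± 1.44 on day 6) and OBSL1 (0.188), which encodes a cytoskeletal adaptor. For EVC2 they were the kinase gene MATK (0.0962, mean from 0.469 CPM on day 0 to 5.40 on day 6) and MCC (0.145, 0.346 to 3.55). For GAS1 they were TCF24 (0.158, 1.51 to 4.49) and ANKRD6 (0.166, 4.11 to 10.4). The added 0.5 CPM damps changes near 0, so a near course need not have a like fold change. The measure describes these libraries and carries no test.

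In a wider Hedgehog list, 58 genes other than the 10 were in the table and 46 were tested. On day 3, 15 were higher and 5 lower than on day 0 (32.6% and 10.9%, against 22.5% and 18.1% of all tested genes). On day 6, 20 were higher and 5 lower (43.5% and 10.9%, against 28.9% and 25.7% of all tested genes). The median log2 fold change of the 46 on day 6 was 0.187, against 0.0132 for all tested genes. Risers that include HHAT, DISP3, GPC6, GPC4, NKX3-2, MYCN, BMP4 and FOXL1 were under the filter in every day 0 library. They entered the test only through later days, so these counts and this median are not read as evidence.

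Of 5 tested genes for making and releasing ligand, 1 was higher on day 3 and 5 on day 6 (20% and 100%, against 22.5% and 28.9% of all tested genes). HHAT and DISP3 were under the filter of 0.385 CPM in every day 0 library and entered the test only through later days, so this count is not read as evidence. HHAT, the enzyme that palmitoylates Hedgehog ligands, went from 1 pooled count on day 0 to 48 on day 6, a ratio of 47.5 (95% interval 8.13 to 1916; adjusted p = 0.000134). SCUBE1, of a family of secreted release factors, went from 0.591 ± 0.0604 to 3.70 ± 0.413 CPM (log2 fold change 2.65, SE 0.23, adjusted p = 2.11e-06). DISP3, a relative of the ligand transporter DISP1, went from 0.102 ± 0.0474 to 0.433 ± 0.0431 CPM (adjusted p = 0.00583).

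Among further receptor genes, the glypicans GPC6 and GPC4, both under the filter in every day 0 library, rose on day 6. GPC6 had no count on day 0 and 135 over the day 6 libraries, so it was at least 44.55-fold higher, taking a floor of 3 counts over the day 0 group (adjusted p = 3.28e-06). GPC4 went from 0.0483 ± 0.049 to 0.508 ± 0.125 CPM (adjusted p = 0.00205).

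Among 19 tested transducers, 5 rose and 4 fell on day 6 (26.3% and 21.1%), shares near those of all tested genes (28.9% and 25.7%). GPR161, a ciliary receptor that restrains the pathway, rose from 7.41 ± 0.968 to 23.6 ± 0.822 CPM (log2 fold change 1.67, SE 0.10, adjusted p = 1.3e-07). GRK3, a receptor kinase, rose from 5.69 ± 0.285 to 14.1 ± 0.871 (adjusted p = 1.18e-06) and the arrestin ARRB1 from 10.8 ± 1.58 to 23.1 ± 1.22 (adjusted p = 5.82e-06). The 4 that fell were the kinase genes PRKACB, GSK3B and CSNK1A1 and the ubiquitin ligase scaffold CUL3, named for completeness after their values were seen. EFCAB7 and IQCE, which tether the EVC complex in the cilium, did not pass (adjusted p = 0.0866 and 0.939 on day 6 against day 0): EFCAB7 was at 19.4 ± 4.15, 15.6 ± 0.52 and 16.0 ± 0.676 CPM, and IQCE at 39.1 ± 7.05, 33.5 ± 0.279 and 38.8 ± 2.75.

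Of 19 tested genes that are common Hedgehog targets in other tissues, 8 rose and 2 fell on day 6 (42.1% and 10.5%, against 28.9% and 25.7% of all tested genes). Those with the lowest p were the cyclin CCND1 (29.2 ± 0.981 to 66.8 ± 1.5 CPM, adjusted p = 5.03e-08), the homeobox gene NKX3-2 (0.0815 ± 0.0147 to 1.85 ± 0.265, adjusted p = 6.51e-07) and MYCN (0.127 ± 0.0692 to 3.22 ± 0.605, adjusted p = 2.33e-06). NKX3-2 and MYCN were under the filter in every day 0 library and entered the test through later days. The same holds for BMP4 and FOXL1, with 0 and 4 pooled counts on day 0, so the count of risers is not read as evidence. These genes have other regulators, and the list holds HHIP and PTCH1.

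Of 66 cilium genes in the table, IFT57 was listed at 0 in all 9 libraries and 65 were tested. Of the 65 genes of intraflagellar transport, the BBSome, the transition zone and the basal body, 4 were higher and 11 lower on day 3 (6.15% and 16.9%), and 27 higher and 8 lower on day 6 (41.5% and 12.3%). The shares over all tested genes were 22.5% and 18.1% on day 3 and 28.9% and 25.7% on day 6. The summed level was 1383 to 1443 CPM in day 0 libraries, 1344 to 1386 on day 3 and 1464 to 1565 on day 6. The transition zone gene TMEM231 rose from 4.44 ± 0.159 to 10.6 ± 0.207 CPM (log2 fold change 1.26, SE 0.11, adjusted p = 1.95e-06) and the transport gene IFT27 from 9.36 ± 1.66 to 19.2 ± 0.364 (adjusted p = 2.22e-05), while TCTN3, of the tectonic complex, fell from 28.1 ± 1.7 to 18.3 ± 0.76 (adjusted p = 4.42e-05).

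**Figure D4:**
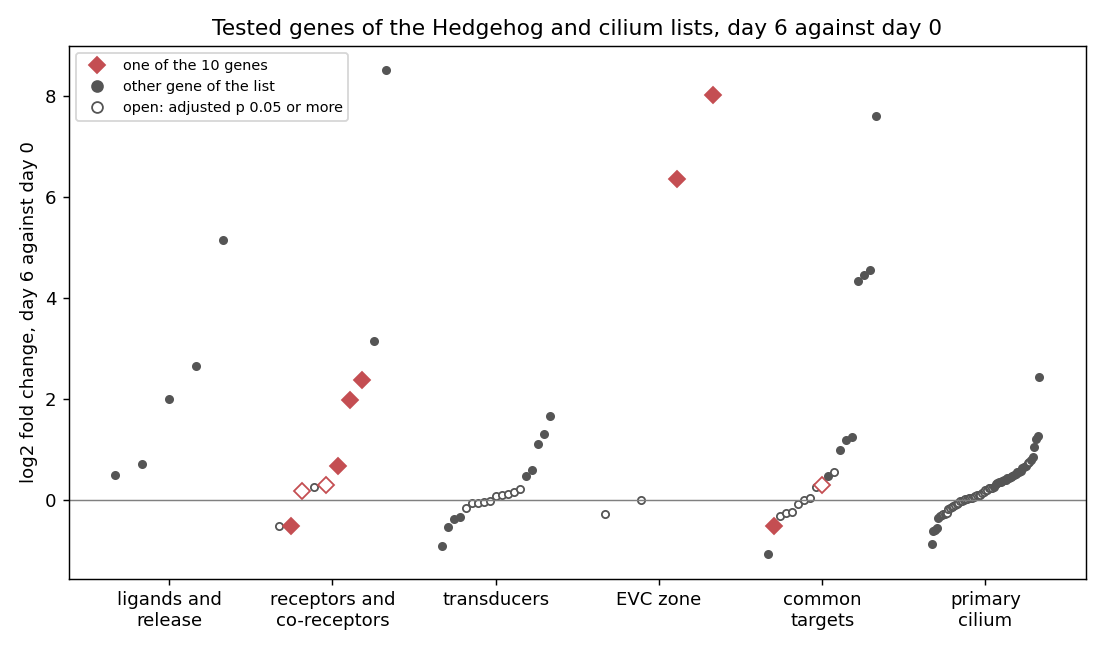
Log2 fold change on day 6 against day 0 for every tested gene of the Hedgehog role lists and the cilium list (points spread by rank, filled where the adjusted p is under 0.05, diamonds for the tested ones of the 10 genes). EVC (8.02) and EVC2 (6.37) stand above the other 2 genes of their ciliary zone, and the cilium genes centre on a median of 0.191. The top receptor point is GPC6, whose fitted value against a day 0 group at 0 is no bound.

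GAS1, SMO, GLI2 and EVC are also transcribed in connective tissue cells, so markers of other cells were read beside them. Of 10 fibroblast markers, 8 stayed under 1 CPM in every library and THY1 was at 0 in all 9. The summed fibroblast level was 55.4 to 60.1 CPM on day 0, 78.0 to 83.8 on day 3 and 74.0 to 80.8 on day 6, most of it PDGFRA. Of the 4 tested, 3 were higher and 0 lower both on day 3 and on day 6 (COL1A1, PDGFRA and PDGFRB). Over all tested genes, 22.5% were higher and 18.1% lower on day 3, and 28.9% and 25.7% on day 6. COL1A1 rose from 0.492 ± 0.145 to 9.53 ± 1.06 CPM on day 6, while DCN, LUM, COL3A1 and FAP each stayed under 1 CPM. Of 10 markers of multiciliated cells, TEKT1 was at 0 in all 9 libraries and 5 stayed under 1 CPM in every library, while FOXJ1 went from 0.343 ± 0.112 to 1.70 ± 0.877 CPM on day 6, when 2 of the 6 tested were higher and 0 lower. The summed multiciliated level was 52.0 to 57.1 CPM on day 0 and 56.2 to 64.5 on day 6. Endothelial markers summed to 2.49 to 3.40 CPM on day 0 and 9.15 to 12.6 on day 6, mostly TEK, with 2 of 3 tested higher on day 6 and CDH5 and KDR under 1 CPM. Leukocyte markers summed to 489 to 644 CPM on day 0 and 328 to 331 on day 6, nearly all LYZ, with PTPRC under 1 CPM. Of the 5 leukocyte markers tested, 1 was higher and 1 lower on day 6. Squamous markers summed to 1.15 to 1.37 CPM on day 0 and 9.49 to 10.2 on day 6. Of the 3 tested, 2 were higher and 1 lower on day 3, and 3 were higher on day 6. With so low a day 0 sum, some may have entered the test only through later days, so these counts are not read as evidence. The part of other cells in the rises was not tested.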

How the data were processed

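The deposited table holds estimated counts per gene symbol, made by the authors with kallisto 0.44.0, which the submitters' processing notes name beside bcl2fastq 2.19 and DESeq2 and the builds GRCh38, GRCm38 and hg38. How transcripts were summed and made whole, and whether strand was used, is not given in the sources used here. Deposited values were already whole. They were scaled by TMM and tested with edgeR 4.0.16 (R 4.3.3), quasi-likelihood F-test, in 1 fit of all 9 libraries with a mean per day, after filterByExpr (minimum count 10). SE is the log2 fold change over the root of F. Benjamini-Hochberg adjustment covered all 15345 tested genes. CPM use TMM-scaled library sizes, and 95% intervals are exact for 2 Poisson counts. The test was checked on simulated counts with a common spread for all genes and changes placed only in genes of higher counts. That check does not cover genes near 0 or a day with a deviating library. Gene positions are from GENCODE release 29 (GRCh38), matched by symbol. Upstream windows are RefSeq's, and 9 of the 10 genes had one.

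The members and lists were chosen with earlier results of these data known. Named beyond the 10 genes were, per role list, up to 3 with the lowest p among those called on day 6 against day 0 (up to 2 of highest CPM where none passed), SHH, IHH, DHH, GLI1, EZH2, EED and SUZ12, and the nearest-course genes. Some genes of the lists are not reported here. Alternatives were median-ratio scaling, library size only, no filter, DESeq2 1.42.0, limma-voom (limma 3.58.1), genes averaging 1 CPM or more, 2-day fits, the replicate number as a blocking term, removal of mitochondrially encoded and the 20 most abundant other genes, and each library left out.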

Additional observations from a re-analysis of the deposited data

Results flagged for a closer look

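The effect on day 3 and the effect on day 6 differed for 3 of the 8 tested genes by the test of day 6 against day 3, which is the test of that difference since both share the day 0 libraries. EVC was higher on day 6 (log2 fold change 2.60, adjusted p = 8.93e-07, edgeR), with all 3 libraries above those of day 3. EVC2 was higher as well (1.88, adjusted p = 0.000803). HHIP was lower (-1.20, adjusted p = 1.05e-06), so that its difference from day 0 was positive on day 3 and negative on day 6. No cause was tested.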

How the results depend on the processing

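Of 24 results (8 genes in 3 comparisons), 20 kept their direction and their side of the threshold in every alternative that gave them a value, and none reversed. The exceptions are SMO and BOC on day 3, PTCH1 on day 6 and CDON between day 3 and day 6, given above. With genes averaging under 1 CPM removed, SMO and GAS1 left the table and 3 of the 10 genes were higher on day 6 against day 0 (5 as reported). With library size only, all fold changes of day 6 against day 0 shifted by a median of 0.115, the wider Hedgehog list had 2 genes lower on day 3, and the share of calls that were higher was 69.2% (55.3% with TMM) on day 3 and 66.6% (53%) on day 6. For day 6 against day 3, all genes called numbered 2497, and 4331 when only those days entered the fit. Leaving out a library gave 1606 (without day 3 replicate 2) to 4681 (without day 0 replicate 2), and with 2 days fitted or without day 0 replicate 2 the share of higher calls was 57.9% or 55.4% (70.7% as reported). Leaving out single libraries gave 3 to 7 lower genes of the wider list on day 3 (5 as reported; 3 without any one of the day 3 libraries) and 2 to 9 on day 6 against day 3 (4 as reported; 2 without day 3 replicate 2, 9 without day 0 replicate 2). Same-numbered libraries of different days did not deviate together (r of deviations -0.145 to 0.188 over 9 pairs), so the numbers were not taken as pairs. With the replicate block 6 of the 10 genes were higher on day 3 and 5 on day 6, and no call of the 10 genes changed. Depth limits SMO, GAS1, GLI2 and GLI3 most.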
